A study of Homo sapiens with 12 samples.

Results

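The 10 genes described here belong to insulin and insulin-like growth factor (IGF) signalling: the receptor substrates IRS1, IRS2 and IRS4, the receptors INSR, IGF1R and IGF2R, the binding proteins IGFBP2, IGFBP4 and IGFBP5, and the transcription factor FOXO3. They were taken by their symbol in the platform annotation, with every probe set (short probes read together for a transcript) that carries that symbol alone, which gave 32 probe sets for 10 of the 19775 genes on the array. IRS1 had 3 probe sets, IRS2 2, IRS4 2, INSR 5, IGF1R 5, IGF2R 3, IGFBP2 1, IGFBP4 1, IGFBP5 6 and FOXO3 4. A further 3 probe sets carried FOXO3 together with its copy FOXO3B, so their gene is uncertain and they were not counted.

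The RNA came from stable lines made from HEK cells, which derive from human embryonic kidney. Each line held a tetracycline-inducible transgene for TRPM7, an ion channel of the cell membrane with a kinase at its C-terminus. In the WT line that transgene was the wild-type channel. In the mutant line it was TRPM7DKD, which lacks the whole C-terminal kinase domain and is named in the series design as nonfunctional and as a control for the inducer. Both lines were kept in DMEM with serum and 5 ug/mL blasticidin, and both exist as untreated cells and as cells given 1 ug of tetracycline (no volume is stated) for 72 hours. The 4 groups had 3 arrays each, numbered as in the labels. Neither separate cultures for the arrays of a group nor the number of clones in a line is stated in the labels, so the p-values here measure the spread between these samples only, which may be technical.

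In this pathway insulin and the IGFs bind the receptor kinases INSR and IGF1R, which phosphorylate the IRS proteins; these recruit PI3-kinase, and AKT downstream of it holds FOXO factors out of the nucleus and raises mTOR activity. IRS4 has a narrow tissue range and is known as a main substrate of the insulin receptor in HEK cells. IGF2R has no kinase and carries IGF2 to lysosomes, whereas the secreted IGFBPs bind IGFs outside the cell and set how much reaches the receptors.

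Start-site windows of 4 members are shown because 2 of these genes had lower signals on the arrays labelled WT with tetracycline and the other 2 had higher signals. Each runs from 250 bases before to 50 bases after a RefSeq transcript start, 5′ to 3′ on the gene's own strand, in build GRCh38.p14. Capitals mark 1 of 4 motifs searched on both strands: GTAAACA (the FOXO core), CAAAACA (an insulin response type element), TGATGNAA (the ATF4 composite element) and CACGTG (the E-box).
IRS4, chrX:108736328-108736627, minus strand: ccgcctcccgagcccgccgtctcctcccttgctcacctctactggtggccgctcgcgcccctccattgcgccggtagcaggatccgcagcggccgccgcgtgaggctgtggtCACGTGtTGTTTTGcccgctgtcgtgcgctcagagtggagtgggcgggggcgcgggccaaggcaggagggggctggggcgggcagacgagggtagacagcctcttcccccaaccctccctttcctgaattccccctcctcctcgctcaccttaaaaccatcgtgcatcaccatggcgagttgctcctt
IGFBP5, chr2:216695500-216695799, minus strand: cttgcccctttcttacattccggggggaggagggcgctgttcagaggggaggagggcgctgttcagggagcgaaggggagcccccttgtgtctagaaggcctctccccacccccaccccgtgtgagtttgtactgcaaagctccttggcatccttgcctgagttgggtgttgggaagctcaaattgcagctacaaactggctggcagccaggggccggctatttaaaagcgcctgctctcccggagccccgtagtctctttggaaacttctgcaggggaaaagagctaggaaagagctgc
INSR, chr19:7294365-7294664, minus strand: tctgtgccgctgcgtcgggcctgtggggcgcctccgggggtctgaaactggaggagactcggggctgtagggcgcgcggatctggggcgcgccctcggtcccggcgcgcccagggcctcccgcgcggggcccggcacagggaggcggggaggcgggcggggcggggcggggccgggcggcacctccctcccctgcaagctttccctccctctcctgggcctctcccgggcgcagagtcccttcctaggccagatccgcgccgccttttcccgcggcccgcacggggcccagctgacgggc
IRS1, chr2:226799771-226800070, minus strand: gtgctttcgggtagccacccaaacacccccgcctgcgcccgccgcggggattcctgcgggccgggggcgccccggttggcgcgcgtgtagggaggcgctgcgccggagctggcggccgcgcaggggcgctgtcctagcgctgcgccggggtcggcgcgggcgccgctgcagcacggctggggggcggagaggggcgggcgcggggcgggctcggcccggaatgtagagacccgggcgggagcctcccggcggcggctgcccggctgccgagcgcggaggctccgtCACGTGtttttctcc

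The 10 genes had 16 such windows, some of which overlap (RefSeq lists several starts for a gene). GTAAACA was in 0 of the 16 and in 3.42% of all 35116 windows of this length. CAAAACA was in 2, read here as its reverse complement TGTTTTG, against 4.92% of all windows. TGATGNAA was in 0 against 3.62%, and CACGTG was in 3 against 7.26%. In the printed IRS4 window the E-box starts at -138 and the CAAAACA match at -131 from the start site of that window, separated by 1 base. In the IRS1 window the only match is an E-box at 36 bases after the start. A second, overlapping IRS4 window held none of the 4 motifs in full, because it ends inside that same E-box. It belongs to a start at 108736563, the outer end of the gene. The printed E-box and CAAAACA match lie after that start and not before it. The other matches were a CAAAACA in the IRS2 window and 3 E-boxes in the IGF2R window. IGFBP5 and INSR had no match, which says only that these letters are not in these windows. A match is a description of the letters and not a binding site.

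Signals below are log2 of the deposited MAS5 signal, and a change is a difference of group means on that scale with the standard error (SE) of the fit, n = 3 arrays per group. A change passed the test at a limma adjusted p under 0.05 over all 29553 tested probe sets. Of the 32 probe sets of the members, 28 were bright enough in at least 1 group to be tested. The 4 untested ones were the single IGFBP4 probe set and 1 each of INSR, IGF1R and IGF2R. Levels are compared only within a probe set. In RNA of a whole culture, fewer cells that express a gene and less of its RNA per cell cannot be told apart.

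Several facts about the arrays bear on what follows. All 8 HEK marker genes examined were above the filter on dim signals in at least 1 group, 0 of 3 fibroblast and 0 of 3 liver and islet markers were, and of blood and endothelial markers only HBB and PECAM1 were. TRPM7 had 5 probe sets, of which 3 were tested, and 0 of the 3 rose past the threshold with tetracycline. One of them, the dim 239484_at, fell in the WT line, from a mean of 7.0 to 4.99 (-2.0 ± 0.629, SE, limma adjusted p = 0.0411), and 223323_x_at was lower in the untreated WT line than in the untreated mutant line (-1.87 ± 0.568, SE, adjusted p = 0.0427). The first call was lost without any 1 of the untreated WT arrays and without WT tetracycline replicate 2 (-1.13, adjusted p = 0.131), and the second without WT untreated replicate 1, without WT untreated replicate 2 (-1.01, adjusted p = 0.107) and without any 1 of the untreated mutant arrays. The one with the highest signal had group means of 8.47 untreated and 7.62 treated in the WT line, and of 8.39 untreated and 8.19 treated in the mutant line, and passed in neither. Where these probe sets lie relative to the transgene is not given in the sources used here, so TRPM7 does not check the labels, and groups are named as labelled. As a sign of RNA quality, the beta-actin control's 3′ signal over its 5′ signal, as a log2 ratio, was 1.05 ± 0.27 (SD) over the 6 WT arrays. Over the 6 mutant arrays it was 0.26 ± 0.026 (SD), which differs with an exact permutation p of 0.00216, 2-sided and the smallest that 6 against 6 allows. The same ratio of the GAPDH control did not differ, at 0.08 ± 0.063 (SD) over the WT arrays and 0.07 ± 0.037 (SD) over the mutant arrays (exact permutation p = 0.779). Replicates also spread more in the WT line, where the median SD per probe set was 0.299 in untreated and 0.326 in treated cells. The mutant line had 0.174 and 0.19.

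The first comparison asked what happened to these genes when tetracycline was given to the WT line. IRS4 and IGFBP5 fell 2.95-fold and 2.57-fold in the probe sets with the highest signal for each gene, while IRS1, INSR, IGF1R and FOXO3 each had 1 probe set that rose, by 1.67 to 1.81 fold. IRS2, IGF2R and IGFBP2 had none that passed. In all, 4 member probe sets rose and 3 fell of 28 tested, where 16.9% of all tested probe sets passed (7.83% higher and 9.11% lower). Taking 1 probe set per gene, the one with the highest mean signal, 2 of 9 genes rose (IRS1 and INSR) and 2 fell (IRS4 and IGFBP5), against 18.0% of all genes (9.41% higher and 8.57% lower). The median change of the 28 was 0.38, against 0.023 over all tested probe sets.

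IRS4 has its gene at chrX:108719946-108736563. Its probe set 1560652_at read 14.79, 15.15 and 14.84 on the untreated WT arrays and 13.15, 13.87 and 13.08 on those with tetracycline. In the mutant line it read 14.8, 14.85 and 14.67 untreated and 14.66, 14.7 and 14.55 with tetracycline. The 3 WT arrays with tetracycline were below the other 9 and did not overlap with any of them, and replicate 2 was the highest of the 3. In the WT line the change was -1.56 ± 0.167 (SE), a 2.95-fold fall (adjusted p = 0.000144), and it passed in all 15 alternative fits, with adjusted p from 2.29e-05 to 0.0263.

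The second IRS4 probe set, 207403_at, did not show this fall. It read 9.8, 10.85 and 10.46 untreated and 9.01, 10.71 and 10.47 with tetracycline in the WT line, and 11.08, 10.81 and 10.87 against 10.79, 10.91 and 10.54 in the mutant line. The WT groups overlapped, with replicate 1 the lowest array of each. Its WT change was -0.3 ± 0.349 (SE, adjusted p = 0.591), passed in 0 of 15 alternatives and changed sign in 2 of them. The statement on IRS4 therefore rests on 1 of its 2 probe sets.

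**Figure D1:**
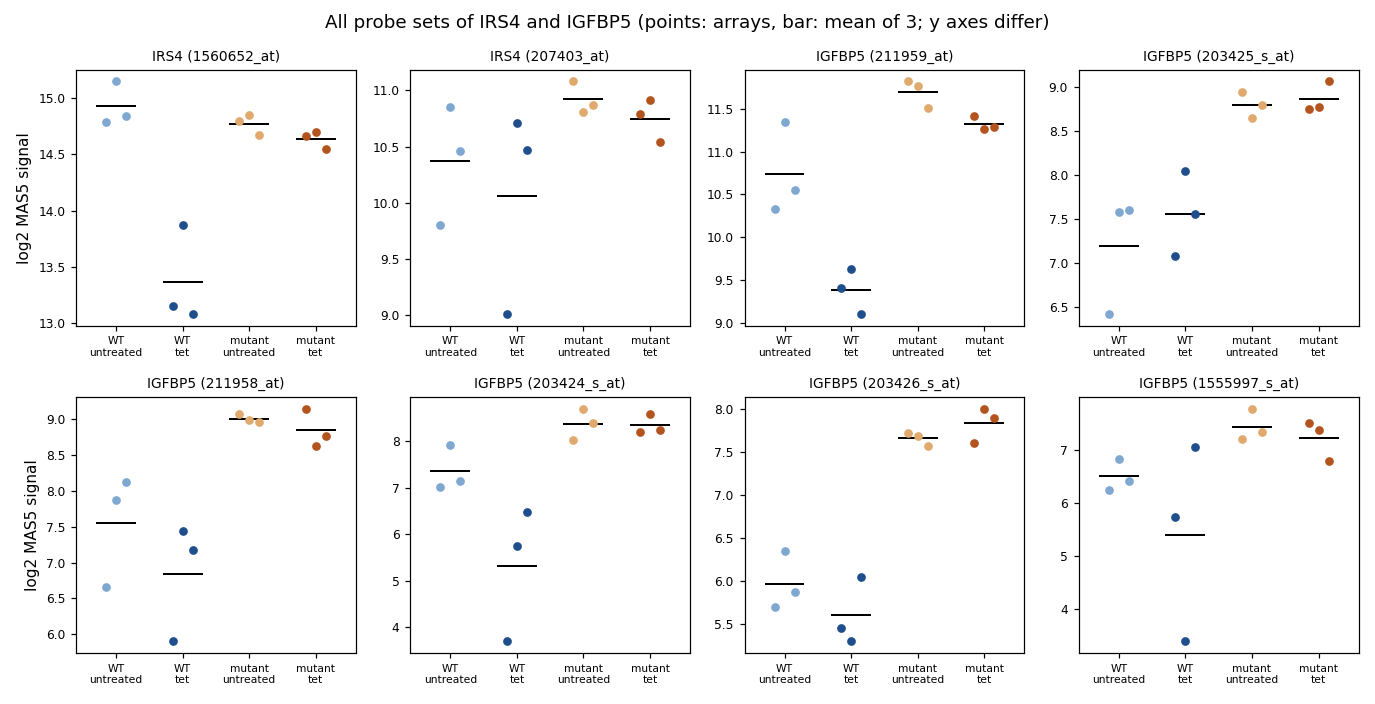
Log2 MAS5 signal (y axes, which differ between panels) of the 2 IRS4 and 6 IGFBP5 probe sets in the 4 groups (x axis), with 1 point per array and a bar at the mean of 3. In IRS4 1560652_at the 3 WT arrays with tetracycline lie between 13.08 and 13.87, under all other arrays, whereas in 207403_at they overlap with the untreated WT arrays. Every IGFBP5 panel has the WT line's mean under the mutant line's.

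Among the other substrates, IRS1, which couples both receptors to PI3-kinase in many cell types, rose. Its probe set 204686_at read 9.02, 8.62 and 8.45 untreated and 9.67, 9.25 and 9.42 with tetracycline in the WT line, and from 9.22 to 9.54 on the 6 mutant arrays. All WT arrays with tetracycline were above all untreated WT arrays and within or near the range of the mutant line. The WT change was 0.75 ± 0.185 (SE, adjusted p = 0.0134). It was 0.63 (adjusted p = 0.0557) without WT untreated replicate 3, and a fit of the WT arrays alone gave an adjusted p of 0.104. The other IRS1 probe sets were at 0.65 and 1.57 in the WT line and did not pass (adjusted p of 0.173 and 0.133); 238933_at, a dim one, passed without WT untreated replicate 3 (2.5, adjusted p = 0.0149). IRS2, the substrate best known from liver and pancreatic beta cells, did not pass, at 0.54 (209185_s_at, adjusted p = 0.223) and 0.47 (209184_s_at, adjusted p = 0.369). Its arrays with tetracycline ranged from 9.81 to 11.12 in 209185_s_at and overlapped with the untreated range of 9.47 to 10.41. Without WT tetracycline replicate 1, the lowest of the 3, both IRS2 probe sets passed, at 0.84 and 0.95 (adjusted p of 0.0314 and 0.014).

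Of the receptors, INSR, the insulin receptor itself, rose in the probe set with its highest signal. Probe set 213792_s_at read 9.12, 9.2 and 8.76 untreated and 9.72, 9.99 and 9.96 with tetracycline in the WT line, and 8.75, 8.51 and 8.77 against 8.29, 9.05 and 8.72 in the mutant line. The 3 WT arrays with tetracycline were the highest of the 12. The change was 0.86 ± 0.207 (SE, adjusted p = 0.0118). It was 0.73 (adjusted p = 0.0519) without WT untreated replicate 3, and the fit of the WT arrays alone gave an adjusted p of 0.0536. The other 3 tested INSR probe sets were at 0.55, 0.67 and 0.69 and did not pass (adjusted p from 0.133 to 0.191). Of these, 226450_at passed without WT untreated replicate 2 (1.03, adjusted p = 0.0175) and 226212_s_at without WT tetracycline replicate 1 (1.01, adjusted p = 0.0391).

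IGF1R, the receptor kinase for IGF1 and IGF2, had 1 of 4 tested probe sets that passed. Probe set 203627_at read 9.67, 8.67 and 9.55 untreated and 10.04, 10.11 and 10.05 with tetracycline. The groups did not overlap, and untreated replicate 2 was far under the other 2. The change was 0.77 ± 0.238 (SE, adjusted p = 0.0389), and it was 0.45 (adjusted p = 0.122) without that array, 0.75 (adjusted p = 0.105) without WT tetracycline replicate 2 and 0.78 (adjusted p = 0.0915) without WT tetracycline replicate 3. This call passed in 7 of 15 alternatives, and the fit of the WT arrays alone gave a limma adjusted p of 0.133. The probe set with the highest IGF1R signal, 225330_at, was at 0.4 ± 0.218 (SE, adjusted p = 0.224) with overlapping groups; without WT tetracycline replicate 1, its lowest treated array, it was 0.69 (adjusted p = 0.00846), and 203628_at also passed (1.1, adjusted p = 0.00216). For IGF2R, the scavenger of IGF2, the 2 tested probe sets were at 0.17 and -0.17 (adjusted p of 0.734 and 0.699).

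Of the 2 binding proteins tested, IGFBP5 passed in the WT line and IGFBP2 did not. IGFBP5, which many cells secrete and which binds to the extracellular matrix as well as to IGFs, fell: its probe set 211959_at read 10.33, 11.34 and 10.55 untreated and 9.4, 9.63 and 9.1 with tetracycline in the WT line. In the mutant line it read 11.82, 11.76 and 11.51 untreated and 11.41, 11.26 and 11.29 with tetracycline. All treated WT arrays were under all other arrays, and the untreated WT arrays were in turn under or near the mutant range, with 11.34 the only one that reached it. The WT change was -1.36 ± 0.22 (SE, adjusted p = 0.00117) and passed in 14 of 15 alternatives; with every replicate 3 array left out it was -1.32 (adjusted p = 0.0539). A second IGFBP5 probe set, 203424_s_at, went from 7.01, 7.92 and 7.14 to 3.7, 5.75 and 6.48, a change of -2.05 ± 0.522 (SE, adjusted p = 0.0159). Its groups did not overlap, but the treated arrays spread widely; without WT untreated replicate 2 the change was -1.76 (adjusted p = 0.0524), and the fit of the WT arrays alone gave an adjusted p of 0.114. The other 4 IGFBP5 probe sets did not pass, with 3 at -0.37, -0.72 and -1.11 and 1, 203425_s_at, at 0.36. Of these, 211958_at passed without WT untreated replicate 1 (-1.17, adjusted p = 0.0475) and 1555997_s_at without WT tetracycline replicate 3 (-1.94, adjusted p = 0.0461).

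IGFBP2, a binding protein common in fetal tissue, did not pass in the WT line. It read 10.37, 10.98 and 11.04 untreated and 11.04, 10.69 and 11.63 with tetracycline, which overlap, with a mean difference of 0.32 ± 0.211 (SE, adjusted p = 0.317). IGFBP4, a binding protein that the protease PAPPA cleaves, had 1 probe set with group means between 4.36 and 6.27, under the filter at 6.39, so it was not tested and no direction is given for it.

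FOXO3, which AKT keeps in the cytoplasm and which switches on stress and metabolic genes when it enters the nucleus, rose in 1 of 4 tested probe sets. Probe set 224889_at read 9.97, 9.92 and 9.72 untreated and 10.45, 10.6 and 10.77 with tetracycline in the WT line, and 9.92, 9.54 and 9.54 against 9.87, 9.47 and 9.44 in the mutant line. The 3 WT arrays with tetracycline were the highest of the 12. The change was 0.74 ± 0.172 (SE, adjusted p = 0.0103), and the fit of the WT arrays alone gave an adjusted p of 0.0574. The 2 FOXO3 probe sets with higher signals were at 0.31 and 0.29 and did not pass (adjusted p of 0.156 and 0.2). The second of them, 204131_s_at, passed without WT tetracycline replicate 1 (0.42, adjusted p = 0.0451). Messenger RNA levels say nothing on where the protein was.

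**Figure D2:**
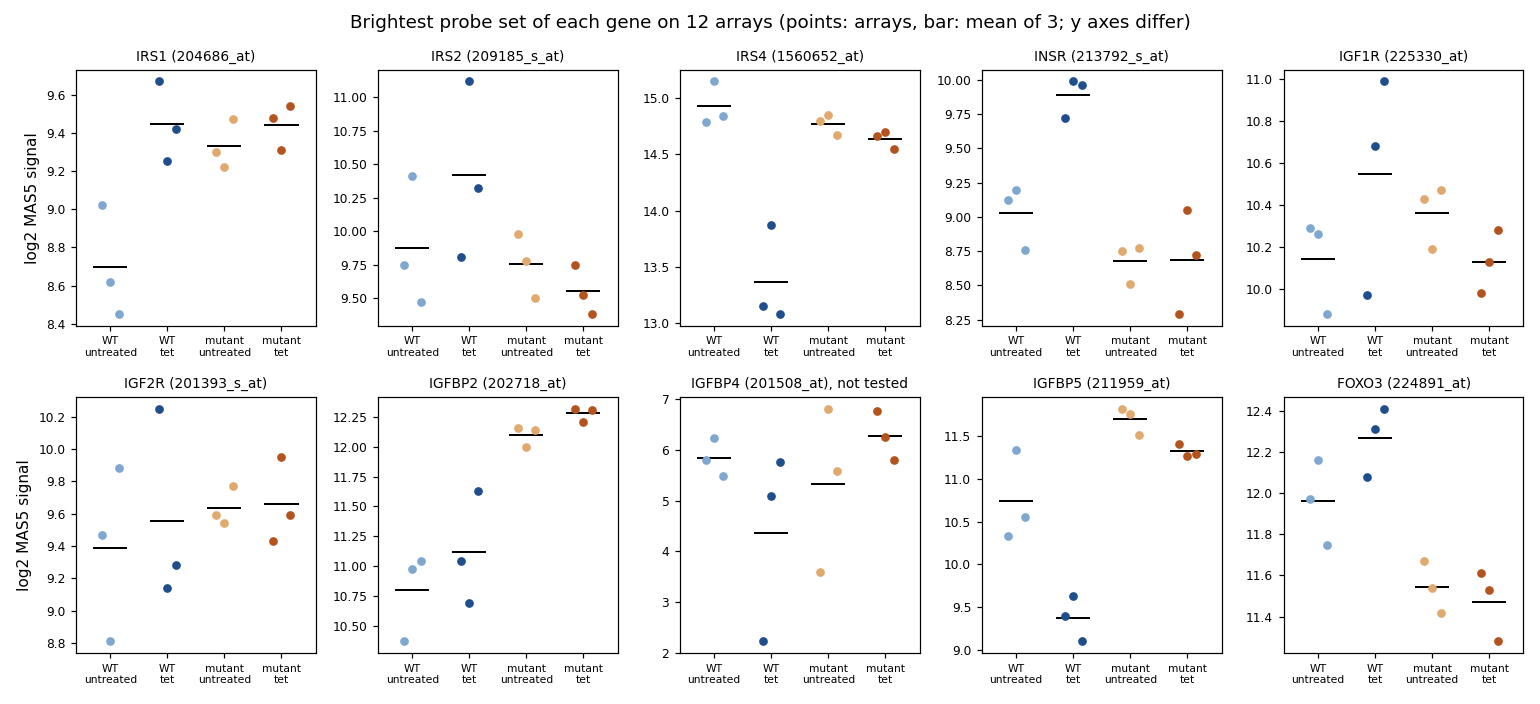
Log2 MAS5 signal (y axes, which differ between panels) of the probe set with the highest mean signal of each of the 10 genes in the 4 groups (x axis), 1 point per array and a bar at the mean of 3; IGFBP4 was not tested. In IRS4 and IGFBP5 the WT arrays with tetracycline lie under all others, in INSR above all others, and in IGFBP2 the WT line lies under the mutant line at both treatments.

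WT tetracycline replicate 1 had a large part in the count for this comparison. Without that array 13 member probe sets passed, 10 higher and 3 lower, against 27.3% of all probe sets; the added ones were in IRS2, INSR, IGF1R and FOXO3. A fit of the 6 WT arrays alone, which takes the spread from that line only, left 2 member probe sets, IRS4 1560652_at and IGFBP5 211959_at, both lower, where 4.14% of all probe sets passed. With every replicate 3 array left out 1 member probe set passed, where 1.83% of all did.

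The mutant line given tetracycline served as the study's control for the inducer. There 0 of 28 member probe sets passed with limma, as did 0.0% of all 29553 probe sets, where the smallest adjusted p was 1.0. At an unadjusted p under 0.05 there were 2 member probe sets and 620 probe sets in all (2.1%), and with array weights 0 members and 0.0135% of all passed. IRS4 1560652_at was at -0.14 ± 0.167 (SE) and 211959_at of IGFBP5 at -0.38 ± 0.22 (SE). The 2 unadjusted ones were INSR 226216_at, at 0.6 ± 0.241 (SE), and FOXO3 231548_at, at 2.12 ± 0.781 (SE), whose untreated arrays read 5.69, 2.68 and 2.28, at the dim end of the scale. The median change of the 28 was -0.04, against 0.002 over all.

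**Figure D3:**
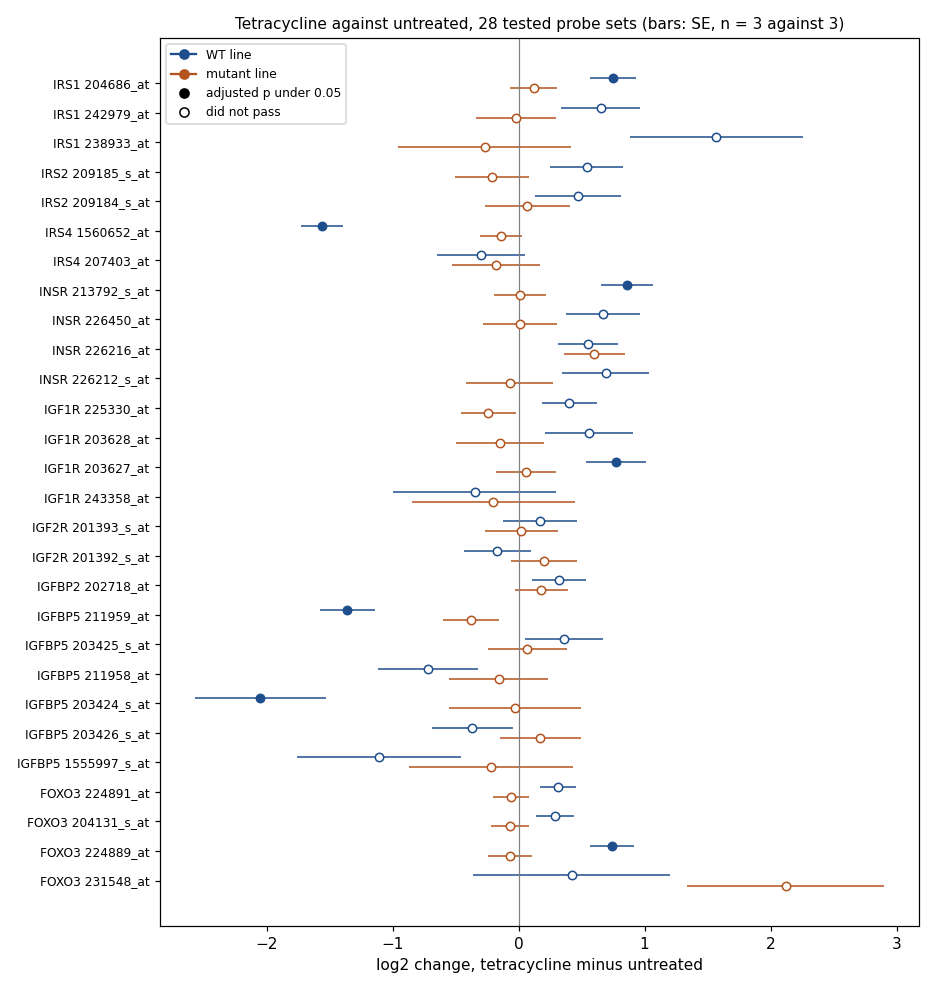
Log2 change with tetracycline (x axis; SE as bars, n = 3 against 3) of the 28 tested member probe sets (y axis) in the WT line (blue) and the mutant line (orange); filled points have a limma adjusted p under 0.05. IRS4 1560652_at lies at -1.56 in the first and -0.14 in the second, and no mutant point is filled.

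Whether the change with tetracycline differed between the lines was tested directly as the difference of both changes. IRS4 1560652_at was the only member probe set that passed, at -1.42 ± 0.236 (SE, adjusted p = 0.0405), where 0.139% of all probe sets passed (0.0643% higher and 0.0744% lower); by gene it was 1 of 9 against 0.145% (0.0765% higher and 0.0689% lower). Of the 41 calls over all probe sets 19 were higher and 22 lower (46.3% higher). After quantile normalization between arrays 4 were higher and 11 lower (26.7% higher), which are too few calls to compare the splits. The IRS4 call was near the threshold: it passed in 8 of 20 alternatives (limma adjusted p from 0.0024 to 0.832, difference from -1.67 to -1.17). It was lost on leaving out WT untreated replicate 2 or 3, WT tetracycline replicate 3, or any 1 of the 6 mutant arrays (adjusted p of up to 0.155), and held without WT untreated replicate 1 and without WT tetracycline replicate 1 or 2. The fit shares 1 spread over all groups, while the WT line's arrays spread more, as given above.

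The next members by unadjusted p did not pass this test. FOXO3 224889_at differed by 0.81 ± 0.244 (SE, adjusted p = 0.155), IGFBP5 211959_at by -0.99 ± 0.31 (SE, adjusted p = 0.172), INSR 213792_s_at by 0.85 ± 0.292 (SE, adjusted p = 0.212) and IRS1 204686_at by 0.63 ± 0.262 (SE, adjusted p = 0.284). For these genes the change in the WT line is not shown to differ from that in the mutant line. Without WT tetracycline replicate 1, 4 member probe sets passed, which added 2 of IGF1R (0.93 and 1.25) and FOXO3 224889_at (0.89), and 9.14% of all probe sets passed.

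The untreated lines were compared to see how the cells differed before the inducer. IGFBP2 and IGFBP5 were lower in the WT line: IGFBP2 in its single probe set, IGFBP5 in 4 of 6. IRS1 was lower in 2 of 3 probe sets and FOXO3 higher in 2 of 4. In all, 2 member probe sets were higher and 7 lower in the WT line of 28, where 12.9% of all passed (4.19% higher and 8.7% lower); by gene 3 of 9 were lower and 0 higher, against 12.7% (5.84% higher and 6.82% lower). Of all calls 32.5% were higher, and 43.2% after quantile normalization. The beta-actin ratio separates the same arrays completely, while the GAPDH ratio does not. The part of RNA quality in these differences was not tested.

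IGFBP2 and IGFBP5 are neighbours on chromosome 2, at chr2:216632828-216664436 and chr2:216672105-216695549, with no gene between them in the RefSeq list of GRCh38.p14. IGFBP2 read 12.16, 12 and 12.14 in the untreated mutant line, so each of these arrays was above all 6 WT arrays, of which the highest was 11.63. The difference between the untreated lines was -1.3 ± 0.211 (SE), 2.46-fold lower in the WT line (adjusted p = 0.00188), and it passed in 15 of 15 alternatives. IGFBP5 was lower in the WT line in all 6 probe sets and passed in 4: 203426_s_at at -1.69, 203425_s_at at -1.6, 211958_at at -1.45 and 211959_at at -0.96 ± 0.22 (SE, adjusted p = 0.0119). For 211959_at the adjusted p was 0.0573 without mutant untreated replicate 1 and 0.0538 without replicate 2 of that group. Probe set 211958_at passed in 8 of 15 alternatives and fell short of the threshold after quantile normalization (-1.27, adjusted p = 0.0645), on leaving out any 1 of the untreated mutant arrays, and on leaving out replicate 1 of the untreated WT arrays (-1.0, adjusted p = 0.101). The values of 203426_s_at show the gap, with 5.7, 6.35 and 5.87 in the WT line and 7.73, 7.69 and 7.58 in the mutant line.

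IRS1 also was lower in the untreated WT line, at -0.63 ± 0.185 (SE, limma adjusted p = 0.0372) in 204686_at and at -2.27 (adjusted p = 0.0424) in the dim 238933_at. The dim one was tested only through the mutant groups, as both of its WT means were under the filter. Both calls were weak, with 204686_at passing in 5 of 15 alternatives (adjusted p up to 0.309) and 238933_at in 4 of 14. In 204686_at the call was lost without WT untreated replicate 2 or 3 or any of the 3 untreated mutant arrays; in 238933_at without WT untreated replicate 1 or 2 or any of those mutant arrays. The WT change and this difference share the 3 untreated WT arrays, which are the lowest of the 12 for 204686_at. FOXO3 was higher in 204131_s_at (0.5, adjusted p = 0.0402) and in the dim 231548_at (3.12, adjusted p = 0.0179), which passed in 6 of 15 and 9 of 14 alternatives. The first was lost without WT untreated replicate 1 or 2 or any untreated mutant array. The second was lost without WT untreated replicate 1 or mutant untreated replicate 2 or 3. Probe set 231548_at was tested only through the WT groups, as both of its mutant means were under the filter. Of the 3 probe sets shared with FOXO3B, 210655_s_at was lower in the untreated WT line (-0.73, adjusted p = 0.0464), and the others were at -0.4 and -0.94 and did not pass. IRS4 did not pass in either probe set (0.15 and -0.55, adjusted p of 0.602 and 0.326), and neither did any probe set of IRS2, INSR, IGF1R or IGF2R.

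With tetracycline in both lines, 5 member probe sets were higher and 9 lower in the WT line of 28, where 27.6% of all passed (10.2% higher and 17.3% lower). By gene, INSR, IRS2 and FOXO3 were higher and IRS4, IGFBP2 and IGFBP5 lower, 6 of 9 against 28.2% of all genes (13.3% higher and 14.9% lower). This comparison shares its WT arrays with the WT change and its mutant arrays with the mutant change, so it is no separate evidence for either. The beta-actin ratio, but not the GAPDH ratio, separates the lines here too.

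In IRS4 1560652_at the WT line was lower, with a difference of -1.27 ± 0.167 (SE, adjusted p = 0.000213), and in 207403_at the difference was -0.68 ± 0.349 (SE, adjusted p = 0.161). All 6 IGFBP5 probe sets passed, from -1.31 in 203425_s_at to -3.03 in 203424_s_at, with 211959_at at -1.94 (limma adjusted p = 9.96e-05). In 203424_s_at, 203426_s_at and 1555997_s_at the WT mean with tetracycline was under the filter. The dimmest of them, 1555997_s_at, was at the threshold (-1.83, adjusted p = 0.0493) and passed in 5 of 14 alternatives; its call was lost without WT tetracycline replicate 2 or any mutant array with tetracycline. IGFBP2 read 11.04, 10.69 and 11.63 against 12.32, 12.21 and 12.31, a difference of -1.16 ± 0.211 (SE, adjusted p = 0.00152) with no overlap. IGF2R 201392_s_at was lower by -1.01 (adjusted p = 0.0117; 0.059 without mutant tetracycline replicate 2), while 201393_s_at differed by -0.1 (adjusted p = 0.824).

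INSR 213792_s_at was higher in the WT line with tetracycline by 1.2 ± 0.207 (SE, adjusted p = 0.00107), and the other tested INSR probe sets by 0.41 to 0.73 without passing. Of the 4 FOXO3 probe sets 3 passed here, 224889_at at 1.01, 204131_s_at at 0.87 and 224891_at at 0.79 (adjusted p of 0.000994, 0.00113 and 0.00143), each in 15 of 15 alternatives. On 224891_at the WT arrays with tetracycline read 12.08, 12.31 and 12.41 and the mutant ones 11.61, 11.53 and 11.28. As in the untreated lines, the 3 probe sets shared with FOXO3B had the opposite sign; they ran from -0.13 to -1.69, and 217399_s_at passed as lower (adjusted p = 0.0464). IRS2 209185_s_at was higher by 0.87 ± 0.292 (SE, adjusted p = 0.0393) and passed in 6 of 15 alternatives; without WT tetracycline replicate 2, its highest array, it was 0.51 (adjusted p = 0.189), and the call was also lost without WT tetracycline replicate 3 or any mutant array with tetracycline. IRS1 204686_at read about the same in both, with a difference of 0.0 ± 0.185 (SE, adjusted p = 0.99).

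**Figure D4:**
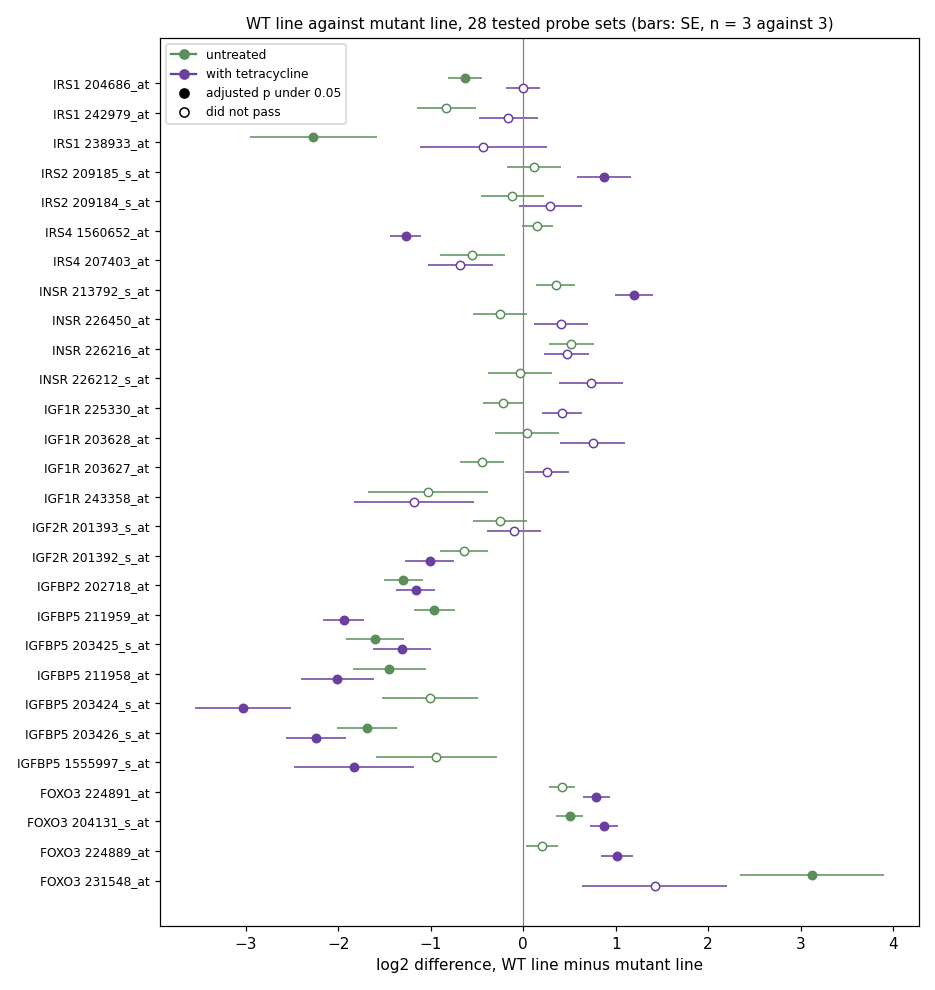
Log2 difference, WT line minus mutant line (x axis; SE as bars, n = 3 against 3), of the 28 tested member probe sets (y axis), untreated (green) and with tetracycline (purple); filled points have a limma adjusted p under 0.05. All 6 IGFBP5 probe sets and IGFBP2 lie left of 0 at both treatments, whereas IRS4 1560652_at does so with tetracycline (-1.27) and not untreated (0.15).

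Around the members, a list of 70 other genes of the pathway was read by the probe set with the highest signal of each; 65 had one and 60 were tested. In the WT line with tetracycline 8 rose and 7 fell of these 60, with a median change of 0.09 against 0.032 over all genes. Of all genes 18.0% passed, as above (9.41% higher and 8.57% lower). The classes below are small, so at these shares the lack of a rise or fall gives a class no direction. Of ligands, only IGF1 was tested, in a dim probe set, and it was named after its values were seen. It fell by 1.58 on the log2 scale, from a mean of 6.49 to 4.91 (limma adjusted p = 0.0429). The probe set was tested only through the untreated groups, as its means with tetracycline were under the filter in each line. This fall, counted among the 7, therefore runs from just over the filter to under it. Among 7 other binding proteins, proteases and inhibitors, IGFBP3 (overlapping groups) and STC2 rose and none fell. STC2, a secreted glycoprotein that inhibits the protease PAPPA, changed by 0.97 ± 0.19 (SE, adjusted p = 0.00357).

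Among 12 adaptors and receptor regulators 3 fell and none rose: SH2B1, an adaptor that binds the activated receptor (-0.78 ± 0.187, SE, adjusted p = 0.0115), and GRB10 and GRB14, which bind and inhibit it (-0.75 and -0.72). Of 10 genes of PI3-kinase, AKT and phosphatases 1 fell, AKT2 (-0.75, limma adjusted p = 0.0423, overlapping groups). Its call was lost without WT untreated replicate 2 or 3 or WT tetracycline replicate 2 or 3. Of 16 genes of TSC, mTOR and its outputs 3 rose and 1 fell. EIF4EBP1, a repressor of cap-dependent translation that mTOR phosphorylates, rose from a mean of 11.72 to 12.89 (1.18 ± 0.133, SE, adjusted p = 0.00018). SESN2 and DDIT4, stress-induced inhibitors of mTOR complex 1, rose by 0.91 ± 0.178 (SE, adjusted p = 0.00364) and 0.75 ± 0.174 (SE, adjusted p = 0.0096), and GSK3B, a kinase that AKT inhibits, fell by 0.75. Of 11 FOXO factors and genes known as FOXO targets, PDK4, a brake on pyruvate dehydrogenase, rose by 1.07 ± 0.282 (SE, adjusted p = 0.0191; overlapping groups), BCL6 rose by 0.91, and none fell.

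Several of these calls were near the threshold and were lost when 1 array was left out, while the sign of the change stayed. Those of PDK4 (0.84 to 1.41 over the 6 fits that leave out a WT array), BCL6 (0.69 to 1.2), GRB10 (-1.1 to -0.58) and GSK3B (-1.09 to -0.56) were each lost without WT untreated replicate 1 or 3 and without WT tetracycline replicate 2 or 3. The GRB14 call (-0.85 to -0.53) was lost without WT untreated replicate 2 or WT tetracycline replicate 2 or 3, and that of IGFBP3 (0.92 to 1.84) without WT untreated replicate 2 or 3 or WT tetracycline replicate 1 or 2. The SH2B1 call (-0.87 to -0.63) was lost without WT tetracycline replicate 2, and that of IGF1 (-1.77 to -1.35) without any 1 of the 6 WT arrays. IGFBP3, GRB10, GRB14, AKT2, GSK3B and BCL6 were, like IGF1, named for the WT line after their values were seen. The calls of EIF4EBP1, SESN2, STC2 and DDIT4 held on leaving out each array in turn.

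The 3 IGF2 mRNA-binding proteins, which bind IGF2 and many other transcripts, did not move together. IGF2BP1 rose from 9.27 to 10.9 (1.63 ± 0.213, SE, adjusted p = 0.000342) and IGF2BP3 fell from 11.6 to 10.6 (-1.0 ± 0.146, SE, adjusted p = 0.000657), each in 15 of 15 alternatives. In the mutant line 0 of the 60 passed with limma, as did 0.0% of all genes, and 1 had an unadjusted p under 0.05, against 1.77% of all genes. Those with the smallest p there were SOCS2 (0.36 ± 0.152, SE), STC1 (-0.53 ± 0.291, SE) and FOXO4 (0.46 ± 0.263, SE). In the test of the difference between lines 0 of 60 passed with limma, against 0.145% of all genes, and 15 had an unadjusted p under 0.05, against 15.2%. The nearest in that test were EIF4EBP1 at 0.97 (adjusted p = 0.0569), IGF2BP1 at 1.39 (adjusted p = 0.0782) and IGF2BP3 at -0.89 (adjusted p = 0.0891).

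Between the untreated lines 4 of the 60 were higher and 4 lower in the WT line, against 12.7% of all genes. RHEB, the small GTPase that activates mTOR complex 1, was higher by 0.8 ± 0.114 (SE, adjusted p = 0.000914), and AKT1S1, an AKT substrate that restrains the same complex, was lower by -1.26 ± 0.23 (SE, adjusted p = 0.00352); both passed in 15 of 15 alternatives. The other higher ones were SESN1, PIK3CB and RICTOR, and the other lower ones STC1, TSC2 and PIK3R3. Their calls were less stable: that of SESN1 was lost without mutant untreated replicate 1, that of PIK3R3 without replicate 1 or 2 of either group, and that of STC1 without WT replicate 1 or 3 or mutant replicate 1 or 2. When 1 array at a time was left out, the TSC2 call held only without WT replicate 1, that of RICTOR only without WT replicate 3, and that of PIK3CB only without WT replicate 3 or mutant replicate 1. With tetracycline in both lines 12 were higher and 12 lower, against 28.2%. RHEB (0.93), RICTOR, the defining subunit of mTOR complex 2 (1.18), and PTPN11, the phosphatase SHP2 (0.58), were among the higher ones. So were IGF2BP1 (1.2), STC2 (1.02) and EIF4EBP1 (0.84). Among the lower ones were AKT2 (-1.18), PIK3R3, a regulatory subunit of PI3-kinase (-0.8), and TSC2, which inhibits RHEB (-1.26). TSC2 was named here after its values were seen.

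Genes with a pattern like that of IRS4 1560652_at and of IGFBP5 211959_at were sought over the 12 arrays, by the root mean square difference of log2 signals after each gene was centred on its mean, among 7890 genes. For IRS4 the nearest were MYC (0.185), PSIP1 (0.208) and PTP4A2 (0.242), with a median of 0.71 over all. MYC had group means of 11.7 untreated and 10.29 treated in the WT line, and of 11.52 untreated and 11.35 treated in the mutant line. For IGFBP5 the nearest were MPND (0.274), NSDHL (0.301) and FNDC10 (0.32), with a median of 0.963. The points share arrays and their scaling, and the likeness is a description with no test.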

How the data were processed

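RNA of 12 samples was measured on Affymetrix HG-U133 Plus 2 arrays. By the submitters' processing notes the authors deposited MAS5 signals, which are linear intensity values, 1 per probe set; no version or settings are given in the sources used here. The trimmed mean of the deposited signals (2% off each end) was 500.06 to 500.07 on every array, so the arrays had been scaled to a common mean. Depth does not apply to arrays, whose number limits the precision.

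Signals under 1 (2211 values, 0.337%) were set to 1 and log2 was taken. Of 54675 probe sets 62 controls were left out, and a probe set was tested where at least 1 group mean exceeded 6.39, the overall median, which left 29553. By the platform annotation, with symbols updated through RefSeq gene identifiers, 41097 probe sets carried 1 symbol, 1801 several and 11721 none. No column was left out and no 2 arrays held the same values. Of the 19775 genes 13067 had a tested representative, the probe set with the highest mean over the 12 arrays.

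One limma 3.58.1 model (R 4.3.3) with a mean per group, 8 residual degrees of freedom and a variance trend in eBayes gave 5 contrasts, each with Benjamini-Hochberg adjustment over all 29553 probe sets, 2-sided, at 0.05. It was run on simulated data with the same spread in all groups, which does not cover the wider spread in the WT line. The pathway genes named are all that passed with the 8 smallest p per comparison, or the 3 with the smallest p where none passed; others named were chosen after their values were seen. Start-site windows came from the RefSeq table and figures from matplotlib 3.10.9 (Python 3.11.15). The member genes, the gene lists and the alternatives were chosen with earlier results of these data known. Alternatives were no filter, a stricter filter (75th percentile, 8.92), an offset of 16, eBayes without trend, quantile normalization, a replicate block, array weights, a fit of only the groups compared, leaving out every replicate 3 array, and leaving out each array in turn.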

Additional observations from a re-analysis of the deposited data

Results flagged for a closer look

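IRS4, by its probe set 1560652_at, stands out because the test of the difference between the lines passed. The difference between the change with tetracycline in the WT line and that in the mutant line was -1.42 on the log2 scale (limma adjusted p = 0.0405), lower on 3 of 3 WT arrays with tetracycline than on any of the other arrays. The adjusted p ran from 0.0024 to 0.832 over 20 alternatives, and the other IRS4 probe set, 207403_at, gave -0.13 (adjusted p = 0.935).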

How the results depend on the processing

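Each count of passing member probe sets is given with the share of all tested probe sets that passed in the same fit. With the stricter filter the counts between the lines fell while the shares of all rose, but only 15 member probe sets were tested there instead of 28. In the WT line with tetracycline 7 passed (16.9% of all); the count was 2 with only the groups compared (4.14%), 1 with every replicate 3 array left out (1.83%) and 6 to 13 on leaving out each array (9.29% to 27.3%). For the difference of the inductions 1 passed (0.139%); it was 0 without the filter (0.0146%), 0 with eBayes without trend (0.0203%), 0 with every replicate 3 array left out (0.0%), 5 with array weights (8.44%) and 0 to 4 on leaving out each array (0.0% to 9.14%). Between untreated lines 9 of 28 passed (12.9%); it was 5 of 15 tested with the stricter filter (20.1%), 5 after quantile normalization (10.6%), 5 with eBayes without trend (10.1%), 3 with every replicate 3 array left out (5.81%) and 3 to 9 on leaving out each array (5.49% to 12.9%). Between the lines with tetracycline 14 of 28 passed (27.6%). The count was 9 of 15 with the stricter filter (39.6%), 11 with every replicate 3 array left out (9.38%) and 11 to 18 on leaving out each array (17.6% to 34.7%). The mutant line gave 0 members in each of these fits (0.0% to 0.0135% of all). Fewer probe sets are tested with the stricter filter (15346) and more without a filter (54613); otherwise the cause of these shifts was not tested. With a replicate block the counts were 7, 0, 1, 9 and 13, and the block changed no other call of a member than that of IGFBP5 1555997_s_at between the lines with tetracycline (adjusted p = 0.0544). Among pathway genes it also ended the IGF1 call in the WT line (adjusted p = 0.0527). The block gave arrays of the same number a common term over both lines, and a pairing within each line was not fitted. The labels do not say that a number marks a shared batch or day, so the numbers were not taken as pairing the arrays. The correlations do not decide this, as a pairing within a line need not show in pairs across the lines. Of 18 same-numbered pairs 4 were above 0.1 (r of deviations from -0.005338 to 0.2535), all 4 within a line, and all 6 pairs within a line were positive. Pairs of other numbers ran from -0.2911 to 0.1131, and 8 of 12 arrays were nearest to their own number, a hint from the data and not from the design. No passing member changed sign under any alternative run. Only 3 arrays per group, signals near background for the dim probe sets and the wider spread in the WT line limit the precision.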
